A study of Mus musculus with 24 samples.

Results

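Cholesterol synthesis and its control by the SREBP2 system were followed in mouse liver through 27 genes listed by function. They comprised 18 enzymes of the path from acetyl-CoA to cholesterol, 6 genes of the SREBP2 control machinery and 3 further genes of the same programme. All 27 were found by symbol among the 23275 gene symbols of the deposited tables. All 27 also passed the filter on low values, a level of at least 1 FPKM in 3 or more of the fitted libraries, in every fit.

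The data were 24 liver RNA libraries in 8 groups of 3, all from C57BL/6 mice whose age the labels do not give. In the acute model, FoxO1lox/lox mice received AAV8.TBG.eGFP (acute controls) or AAV8.TBG.Cre (acute knockouts) through the tail vein, and livers were collected on day 21. In the constitutive model, FoxO1lox/lox mice carrying no virus (constitutive controls) stood against FoxO1-/- mice, made by crossing FoxO1lox/lox with Albumin-cre transgenic animals (constitutive knockouts). Each of these 4 kinds of mouse was sampled after a 4 h fast, or after a 4 h fast and 1 h of refeeding. All groups therefore carried the floxed FoxO1 allele, and both acute groups carried a virus. The TBG and albumin promoters are hepatocyte promoters, so other liver cells were not the target of either deletion. The labels number the libraries of a group from 1 to 3 and do not say that each came from its own animal, so p-values measure the spread between these samples only, which may be technical.

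Cells make cholesterol from acetyl-CoA through mevalonate, the isoprenoid pyrophosphates, squalene and lanosterol, and most enzymes of the path are transcribed under the factor SREBP2, the product of Srebf2. SREBP2 is made as a membrane protein of the endoplasmic reticulum bound to its escort SCAP. When sterols are plentiful the INSIG proteins hold SCAP in place, and when they are scarce SCAP carries SREBP2 to the Golgi, where the site-1 and site-2 proteases (Mbtps1 and Mbtps2) release its active part. In liver, Insig1 is itself an SREBP target, whereas Insig2 has a liver transcript from its own promoter that falls with insulin. FoxO1 is a transcription factor that insulin inactivates.

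Levels are in FPKM, a fragment measure divided by transcript length and by library size, so genes can be compared with each other. Changes are limma's differences on the scale of log2(FPKM + 1), with Benjamini-Hochberg adjustment over all genes tested, and a gene is called at an adjusted p of 0.05. The targeted gene followed the labels: Foxo1 lay between 4.21 and 6.81 FPKM in the 12 control libraries and between 0.212 and 0.571 FPKM in the 12 knockout libraries. Hepatocyte markers matched the liver label, with a summed level of 47899 to 70064 FPKM per library. Relative depth, read from the steps of the low values, was 0.549 to 0.668 in 8 acute libraries, 1.16 to 1.37 in the other 4 (acute control fasted 3 and refed 3, acute knockout fasted 1 and refed 1), and 1.10 to 1.27 in the constitutive libraries. In whole tissue, fewer cells of a type and less RNA per cell cannot be told apart.

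Over all 24 libraries, Fdps had the highest median level of the set, at 175 FPKM, followed by Sc5d at 170 (169.6) and Ebp at 106. Fdps makes farnesyl pyrophosphate, the branch point to sterols and prenylated proteins. Sc5d and Ebp act on the sterol ring late in the path. The levels of Fdps and Sc5d overlapped, with ranges over the libraries of 88.1 to 318 and 145 to 287 FPKM. Insig1 (90.2), Tm7sf2 (88.9), Hmgcs1 (75.5), Idi1 (74.2), Tmem97 (71.7) and Acat2 (64.1) came next. Fdft1 (46.5), Nsdhl (41.8), Cyp51 (40.4), Insig2 (39.3), Pmvk (38.7) and Sqle (35.9) had medians near 40 FPKM. Scap (27.5), Dhcr7 (27.4), Rdh11 (26.0) and Stard4 (23.7) lay lower. Lss (13.5), Mvd (13.4), Mvk (13.0), Mbtps1 (12.5), Hsd17b7 (12.4) and Srebf2 (9.96) were the least abundant apart from Ggps1 (2.62), which makes geranylgeranyl pyrophosphate, and the site-2 protease gene Mbtps2 (1.19). Neighbours in this order had overlapping ranges, apart from 3 gaps. Sc5d (lowest library 145 FPKM) lay above Ebp (highest 134), Srebf2 (lowest 7.63) above Ggps1 (highest 3.30), and Ggps1 (lowest 2.01) above Mbtps2 (highest 1.47).

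**Figure D1:**
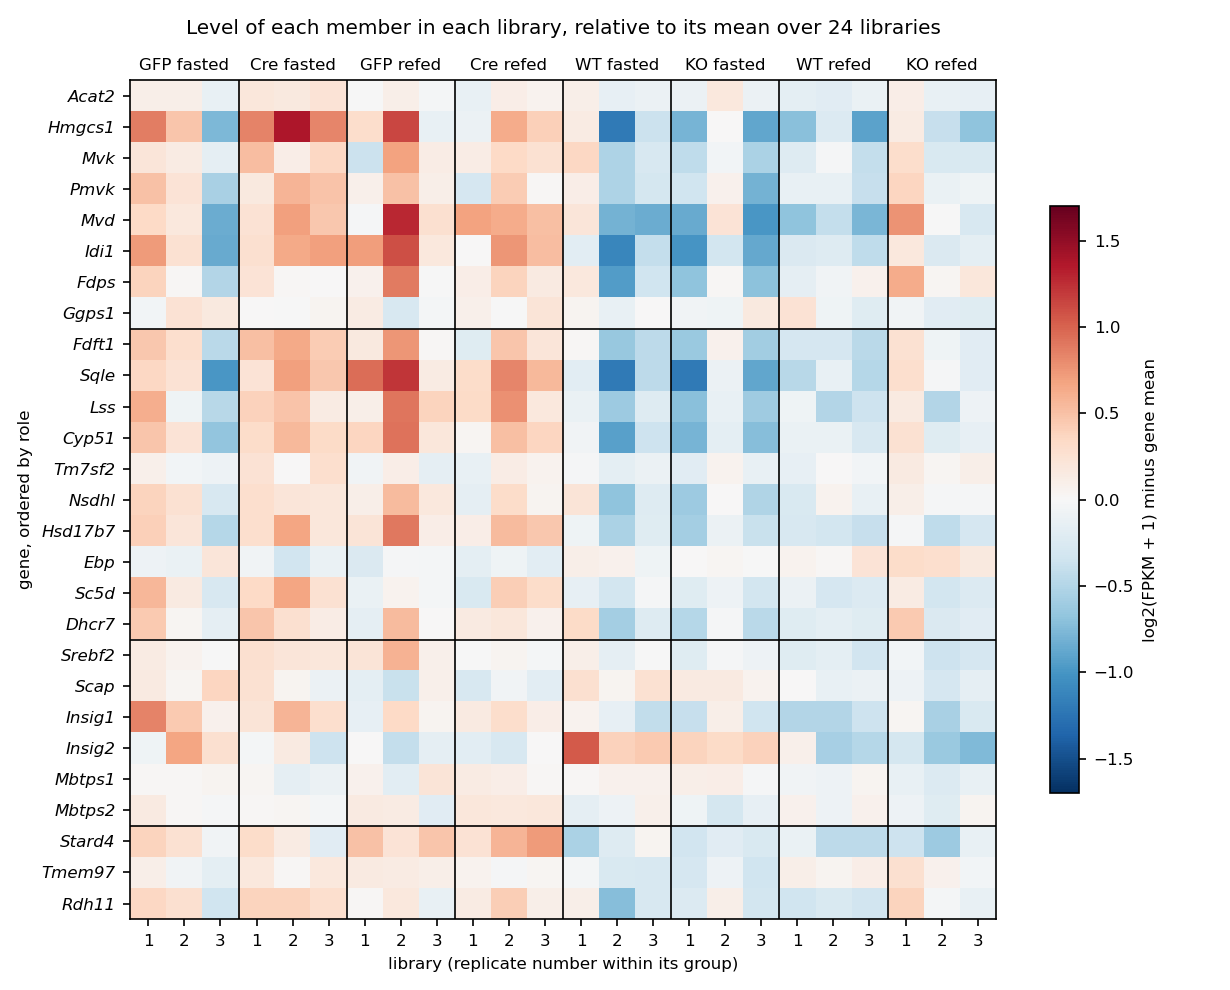
Heat map of the 27 genes (rows, by role) in the 24 libraries (columns, by group, with GFP and Cre for acute controls and knockouts and WT and KO for constitutive ones). Colour is log2(FPKM + 1) minus the gene's mean over all libraries, so red is above and blue below that gene's own mean; within a group most enzymes change colour together from library to library, as with the low acute control fasted library 3, whereas Insig2 and Scap turn from red in fasted to mostly blue in refed columns of the constitutive model.

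The clearest change in the set was in its control genes. With refeeding, averaged over both models and genotypes, Insig2 fell by 0.60 on the log2 scale and Scap fell by 0.29, while none of the other 4 control genes was called. In the same average, 3 members rose: Tmem97, Sqle and Fdps. These 5 called members are 18.5% of 27, against 30.3% of the 10682 genes tested that were called in the same comparison, so the share of the set that was called did not exceed that of all genes. By direction, 19.9% of all genes were called higher and 10.4% lower. Tested separately, 3 of the 4 fasted and refed pairs called 0 members by limma. In acute controls 6.56% of all genes were called and 3 members (Sqle, Insig2 and Scap) were at an unadjusted p under 0.05. In acute knockouts these were 5.44% and 1 member (Stard4), and in constitutive controls 0.318% and 3 members (Tmem97, Insig2 and Scap). The fourth pair, the constitutive knockouts, called 1 member, Insig2 (3.7% of 27), against 5.68% of all genes (3.68% lower), and 10 members were at an unadjusted p under 0.05.

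Insig2 encodes one of the INSIG proteins that anchor SCAP, and it lies on chr1:121304353-121332580 of mm10. RefSeq gives it 3 start sites on the reverse strand. The 250 bases before each start are printed here because Insig2 showed the largest change with refeeding in the set and has transcripts from separate promoters, which the gene-level FPKM does not separate. In these windows and all others printed, from the GRCm38.p6 RefSeq annotation and read 5′ to 3′ on the gene's strand, capitals mark matches to the SREBP element letters TCACNCCAC, to the NF-Y letters CCAAT, or to the FoxO letters GTAAACA, each on either strand. The first window is chr1:121332590-121332839, the second chr1:121328025-121328274 and the last chr1:121327679-121327928.
Insig2, first start: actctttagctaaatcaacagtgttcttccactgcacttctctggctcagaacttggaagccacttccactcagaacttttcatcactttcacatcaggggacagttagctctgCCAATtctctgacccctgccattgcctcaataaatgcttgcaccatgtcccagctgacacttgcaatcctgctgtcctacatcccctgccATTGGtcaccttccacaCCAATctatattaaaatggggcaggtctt
Insig2, second start: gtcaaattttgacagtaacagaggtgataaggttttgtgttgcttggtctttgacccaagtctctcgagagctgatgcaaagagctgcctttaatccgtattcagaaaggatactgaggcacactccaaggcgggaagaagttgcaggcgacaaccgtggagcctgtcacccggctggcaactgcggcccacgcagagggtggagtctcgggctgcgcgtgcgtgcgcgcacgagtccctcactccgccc
Insig2, last start: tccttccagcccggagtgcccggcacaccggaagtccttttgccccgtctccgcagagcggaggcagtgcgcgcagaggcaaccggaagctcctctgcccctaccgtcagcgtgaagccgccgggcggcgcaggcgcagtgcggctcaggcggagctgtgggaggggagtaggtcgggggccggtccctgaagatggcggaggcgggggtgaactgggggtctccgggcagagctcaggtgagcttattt
The first window held 3 matches to CCAAT, and the other two windows had none. None of the 3 windows matched TCACNCCAC or GTAAACA. The first lies just before the deposited gene span and the other two inside it.

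In the constitutive controls Insig2 was at 82.6, 52.3 and 54.5 FPKM in the fasted libraries and at 42.1, 26.5 and 28.1 FPKM in the refed libraries. In the constitutive knockouts it was at 52.0, 50.1 and 52.5 FPKM fasted and at 32.2, 25.2 and 23.3 FPKM refed. All refed libraries of the constitutive model lay below all its fasted ones, in both genotypes. The mean fell from 63.1 ± 16.9 to 32.2 ± 8.58 FPKM in controls (SD, n = 3 each), 1.96-fold, and from 51.5 ± 1.27 to 26.9 ± 4.68 FPKM in knockouts, 1.92-fold. By limma, the change was -0.95 in controls (SE 0.195, adjusted p = 0.0604), which missed the threshold, and -0.93 in knockouts (SE 0.195, adjusted p = 0.0249), which passed it. In controls Insig2 was called under median-of-ratios scaling (adjusted p = 0.0384), with the replicate block (0.0246) and without control refed 1 (0.0423). The call in the knockouts was lost without knockout fasted 1, 2 or 3 or refed 2 (highest adjusted p = 0.0979), and without the filter on low values (adjusted p = 0.0549). Both genotypes together, a comparison added after the data were seen, gave -0.94 (SE 0.138, adjusted p = 0.00255). That comparison called 3 members and 14.4% of all genes, and its Insig2 call held when any 1 of the 12 libraries was left out.

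The acute model gave smaller differences for Insig2. Acute controls had 37.5, 63.6 and 48.1 FPKM fasted and 40.0, 29.7 and 35.4 FPKM refed. Acute knockouts had 38.8, 44.3 and 30.7 FPKM fasted and 34.9, 32.7 and 39.8 FPKM refed. Fasted and refed libraries overlapped in both, and neither change was called (-0.47 with adjusted p = 0.154 in controls, and -0.07 with adjusted p = 0.846 in knockouts, limma). The test of the difference between models, acute minus constitutive refeeding effect over both genotypes, gave 0.67 (SE 0.204, 95% interval 0.24 to 1.09, adjusted p = 0.0799), which missed the threshold. That comparison, added after the data were seen, called 0 members and 1.43% of all genes by limma, with 5 members (Tmem97, Stard4, Insig2, Mbtps1 and Ebp) at an unadjusted p under 0.05. In it the median of all genes moved from 0.0922 to -0.0086 under median-of-ratios scaling, and the Insig2 value was then 0.55 (adjusted p = 0.147).

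Scap, the escort that carries SREBP2 out of the endoplasmic reticulum, lies on chr9:110333293-110384946. Its printed window, chr9:110333106-110333355 on the forward strand, precedes the later of 2 RefSeq starts and is shown because Scap was the other control gene called with refeeding.
Scap: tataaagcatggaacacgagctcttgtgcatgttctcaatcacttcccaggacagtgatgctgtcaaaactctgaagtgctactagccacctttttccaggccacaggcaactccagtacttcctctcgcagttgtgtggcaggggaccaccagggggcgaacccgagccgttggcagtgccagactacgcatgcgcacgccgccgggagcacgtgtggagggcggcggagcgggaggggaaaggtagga
It held no match to the letters searched apart from one to GGGCGG, the Sp1 letters, which are not capitalised. Fasted and refed levels were 30.3, 27.9 and 35.1 against 23.9, 20.6 and 28.8 FPKM in acute controls, and 32.7, 27.9 and 25.3 against 22.3, 25.9 and 23.7 FPKM in acute knockouts. They were 33.0, 27.9 and 32.7 against 27.2, 24.9 and 25.2 FPKM in constitutive controls, and 30.2, 30.3 and 28.2 against 25.5, 22.1 and 24.3 FPKM in constitutive knockouts. The refed mean was lower in all 4 pairs, by 1.27-fold, 1.20-fold, 1.21-fold and 1.23-fold in that order, and in the constitutive model fasted and refed libraries did not overlap. The averaged change was -0.29 (SE 0.0565, 95% interval -0.40 to -0.17, adjusted p = 0.000925, limma). Within models it was -0.28 in the constitutive (SE 0.0591, adjusted p = 0.0119) and -0.29 in the acute (SE 0.0947, adjusted p = 0.0509), where it missed the threshold. The acute model over both genotypes called 0 members and 19.7% of all genes by limma, with 2 members (Stard4 and Scap) at an unadjusted p under 0.05. Both of these comparisons over 2 genotypes were added after the data were seen. In the single pairs Scap was not called, with adjusted p from 0.0609 (constitutive knockouts) to 0.296 (acute knockouts).

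Insig1, the INSIG gene that SREBP2 itself induces, lies on chr5:28071412-28078662, and Srebf2 on chr15:82147269-82204960. Their windows, chr5:28071162-28071411 and chr15:82147019-82147268, both forward, are printed because both genes differed between the control groups of the 2 models, as described further on.
Insig1: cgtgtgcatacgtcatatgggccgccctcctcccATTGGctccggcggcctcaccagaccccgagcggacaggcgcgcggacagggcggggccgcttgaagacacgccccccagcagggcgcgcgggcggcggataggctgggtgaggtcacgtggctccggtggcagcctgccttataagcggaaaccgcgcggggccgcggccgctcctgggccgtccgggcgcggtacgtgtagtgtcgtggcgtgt
Srebf2: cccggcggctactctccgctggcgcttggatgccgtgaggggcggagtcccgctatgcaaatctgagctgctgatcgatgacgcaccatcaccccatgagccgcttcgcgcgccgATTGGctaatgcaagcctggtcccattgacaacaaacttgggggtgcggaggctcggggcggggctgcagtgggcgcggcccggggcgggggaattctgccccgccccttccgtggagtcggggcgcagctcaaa
Each held 1 match to CCAAT. Averaged over the pairs, the refeeding change of Insig1 was -0.22 (SE 0.0928, adjusted p = 0.0784, limma), not called, and the largest single difference was in acute controls, from 123 ± 32.8 to 93.1 ± 16.3 FPKM (SD, n = 3), with overlapping libraries. For Srebf2 the averaged change was -0.08 (adjusted p = 0.255). Mbtps1, the site-1 protease gene, changed by -0.03 on average (adjusted p = 0.577). In constitutive knockouts its 3 refed libraries, 11.2, 10.4 and 11.2 FPKM, lay below the 3 fasted ones, 13.3, 13.4 and 12.1 FPKM (adjusted p = 0.0801, not called). Mbtps2 was close to the filter, between 0.754 and 1.47 FPKM, and its averaged change of 0.08 was not called (adjusted p = 0.237).

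**Figure D2:**
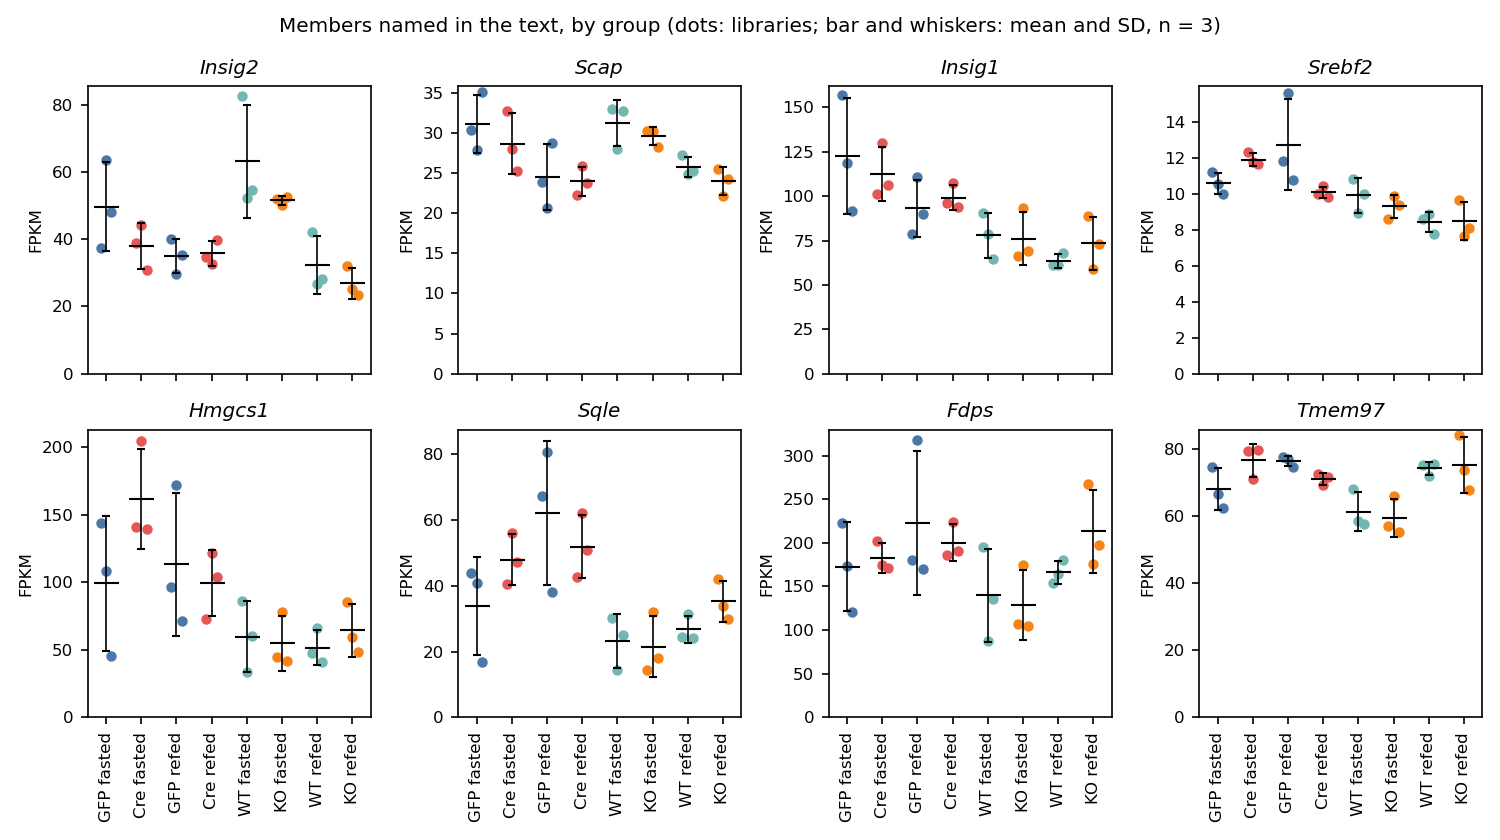
FPKM of 8 of the genes in each library (points) with group means and SD (bars, n = 3), by group. GFP and Cre mark the acute controls and knockouts, WT and KO the constitutive ones. Insig2 and Scap sit lower in the refed than in the fasted groups of the constitutive model without overlap, while Hmgcs1, Sqle and Fdps spread widely inside single groups.

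The ratio of Insig1 to Insig2 FPKM lay between 1.10 and 1.50 in constitutive control fasted libraries and between 1.45 and 2.43 in the refed ones, with a slight overlap. In constitutive knockouts it went from 1.27 to 1.86 fasted to 2.34 to 3.13 refed, with no overlap. In acute controls it was 4.19, 1.87 and 1.91 fasted against 1.97, 3.73 and 2.54 refed, and in acute knockouts 2.61, 2.94 and 3.45 against 2.76, 3.28 and 2.36, with overlapping values in both. These ratios are given as a description, with no test.

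Among the enzymes, 2 of 18 were called in the averaged refeeding comparison, and both rose. Sqle, squalene epoxidase, the oxygen-requiring step that commits squalene to sterols, lies on chr15:59315092-59331193. Its fasted and refed values were 44.1, 40.7 and 16.8 against 67.2, 80.8 and 38.0 FPKM in acute controls, and 40.5, 56.1 and 47.3 against 42.8, 62.0 and 50.9 FPKM in acute knockouts. They were 30.3, 14.3 and 25.0 against 24.5, 31.4 and 24.3 FPKM in constitutive controls, and 14.3, 31.9 and 18.1 against 42.0, 33.8 and 30.0 FPKM in constitutive knockouts. The refed mean was higher in every pair, by 1.83-fold, 1.08-fold, 1.15-fold and 1.64-fold, but the libraries overlapped in each. The averaged change was 0.50 (SE 0.172, 95% interval 0.14 to 0.86, adjusted p = 0.0323, limma), and no single pair was called (lowest adjusted p = 0.13, constitutive knockouts).

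Fdps, on chr3:89093588-89101967, had 223, 174 and 121 against 180, 318 and 171 FPKM in acute controls, and 202, 174 and 172 against 186, 224 and 190 FPKM in acute knockouts. It had 195, 88.1 and 136 against 154, 164 and 181 FPKM in constitutive controls, and 107, 175 and 105 against 267, 176 and 197 FPKM in constitutive knockouts. Only in the constitutive knockouts did every refed library lie above every fasted one, and there 176 stood just above 175. The averaged change was 0.39 (SE 0.138, 95% interval 0.10 to 0.67, adjusted p = 0.0405, limma). The calls of Sqle and Fdps were weak. Leaving out 1 library at a time, Sqle stayed called in 14 of 24 fits (highest adjusted p = 0.0634) and Fdps in 11 of 24 (highest 0.0775), while Insig2, Scap and Tmem97 stayed called in all 24. Under median-of-ratios scaling Sqle (adjusted p = 0.0515) and Fdps (0.0677) were not called, and Insig1 (0.0373) and Acat2 (-0.13, 0.0376) were called lower. The split of members called was then 1 higher (Tmem97) and 4 lower (Insig2, Scap, Insig1 and Acat2), in place of 3 higher and 2 lower. Over all genes the same scaling turned 2128 higher and 1108 lower calls into 1539 and 1663.

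The remaining enzymes were not called. Hmgcs1, HMG-CoA synthase, which supplies the mevalonate path, lies on chr13:119690462-119708077. The window before its start, chr13:119690101-119690350 on the forward strand, is printed because it was the only member window with the letters TCACNCCAC.
Hmgcs1: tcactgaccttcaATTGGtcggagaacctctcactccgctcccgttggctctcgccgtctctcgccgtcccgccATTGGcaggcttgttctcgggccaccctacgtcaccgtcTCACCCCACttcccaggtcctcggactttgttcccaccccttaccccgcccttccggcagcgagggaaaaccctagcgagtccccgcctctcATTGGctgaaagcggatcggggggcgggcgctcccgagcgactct
It held 1 such match and 3 to CCAAT. Hmgcs1 was at 144, 108 and 45.5 against 96.3, 172 and 71.1 FPKM in acute controls fasted and refed, and at 141, 204 and 139 against 72.9, 121 and 104 FPKM in acute knockouts. It was at 86.0, 33.4 and 60.2 against 47.4, 66.0 and 41.2 FPKM in constitutive controls, and at 44.7, 78.1 and 41.7 against 85.7, 59.3 and 48.1 FPKM in constitutive knockouts. Refed libraries lay below fasted ones without overlap in the acute knockouts alone, where the change was -0.70 (SE 0.408, 95% interval -1.60 to 0.19, adjusted p = 0.322, limma). The averaged change of Hmgcs1 was -0.09 (adjusted p = 0.77). Idi1, which isomerises isopentenyl pyrophosphate, had an averaged change of 0.35 (adjusted p = 0.104), and Cyp51, the lanosterol demethylase, one of 0.30 (adjusted p = 0.0883).

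In constitutive knockouts all 10 enzymes of the sterol arm had a positive refeeding estimate, with a median of 0.33 on the log2 scale, and 6 of the 8 enzymes of the mevalonate arm did, with a median of 0.34. Over all genes that comparison had 46.2% positive estimates and a median of -0.02. In that pair of groups, Idi1 went from 38.6, 63.1 and 42.4 to 88.4, 65.6 and 69.7 FPKM without overlap, an estimate of 0.65 that was not called (adjusted p = 0.107). Ebp was likewise at 108, 110 and 107 FPKM fasted and at 134, 131 and 121 FPKM refed (0.25, adjusted p = 0.0808). Of the 27 members, 4 (Idi1, Fdps, Ebp and Tmem97) lay wholly above and 3 (Insig2, Scap and Mbtps1) wholly below, against 12.9% and 17.3% of all genes. In constitutive controls 1 (Tmem97) lay above and 3 (Insig2, Scap and Srebf2) below, against 10.1% and 9.45%. In acute knockouts 1 (Mbtps2) lay above and 3 (Acat2, Hmgcs1 and Srebf2) below, against 22.7% and 7.34%, and in acute controls no member was separated, against 19.8% and 7.16%. The positive estimates of the enzymes are not independent observations, because the enzymes varied together from library to library.

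That shared variation was large. The pooled SD within groups was 0.318 on the log2 scale over the 18 enzymes, 0.135 over the 6 control genes and 0.145 over all genes kept. For Hmgcs1 it was 0.544, larger than in 98.0% of genes, and for Mvd, which decarboxylates mevalonate pyrophosphate, it was 0.508 (97.7%). For Sqle it was 0.460 (97.1%) and for Idi1 0.435 (96.7%). In constitutive knockouts after refeeding, library 1 was the highest of the 3 for all 18 enzymes. In fasted constitutive controls library 1 was the highest for 17 enzymes and library 2 the lowest for 16, and in fasted constitutive knockouts library 2 was the highest for 17. In acute controls, fasted library 3 was the lowest for 16 enzymes and refed library 2 the highest for 17. Fewer enzymes moved together in fasted acute knockouts, where library 2 was the highest for 9 and library 3 the lowest for 8, and in refed constitutive controls, where library 2 was the highest for 8 and library 3 the lowest for 11.

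The sum of the 18 enzymes shows the size of these swings. It ran from 823 to 1411 FPKM in fasted acute controls (mean 1131 ± 295, SD, n = 3), and from 1297 to 1439 FPKM in fasted acute knockouts (1348 ± 79.4). In the refed acute groups it ran from 1063 to 1614 FPKM in controls and from 1015 to 1388 FPKM in knockouts. The constitutive groups were lower, at 722 to 1084 FPKM fasted and 922 to 951 FPKM refed in controls, and at 761 to 1041 FPKM fasted and 981 to 1288 FPKM refed in knockouts. Of the 4 deeper acute libraries, 3 had the lowest enzyme sum of their group: fasted control 3 (823 FPKM against 1159 and 1411), refed control 3 (1063 against 1146 and 1614) and refed knockout 1 (1015 against 1224 and 1388). The other, fasted knockout 1, was at 1306 FPKM against 1297 and 1439. The part of depth in these sums was not tested.

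**Figure D3:**
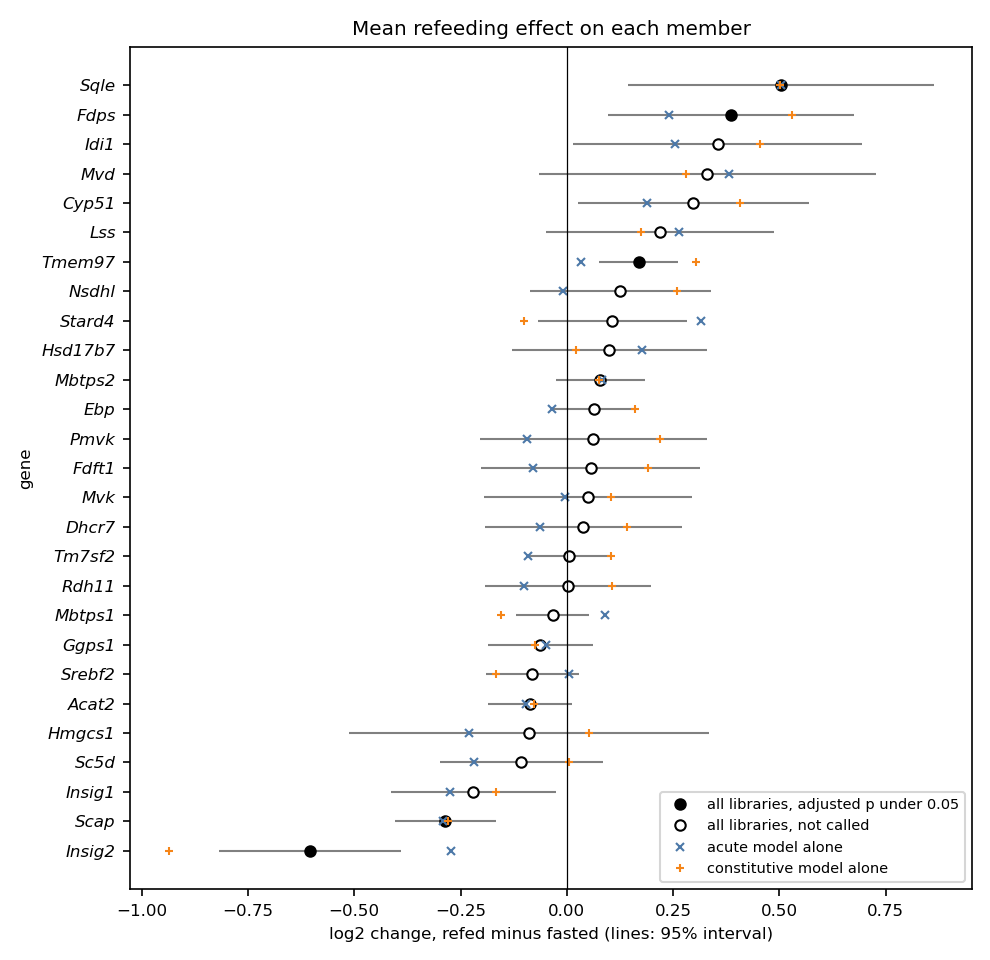
Refeeding change of each of the 27 genes, averaged over both models and genotypes, on the log2(FPKM + 1) scale, with its 95% interval (points and lines), beside the acute model alone (×) and the constitutive model alone (+). Insig2 and Scap lie below 0 and Tmem97, Sqle and Fdps above it with intervals that do not cross 0; for Insig2 the constitutive value (-0.94) lies farther from 0 than the acute one (-0.27).

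Tmem97, the sigma-2 receptor, a sterol-regulated membrane protein that binds the cholesterol transporter NPC1, lies on chr11:78541817-78550735. Its window, chr11:78550736-78550985 on the reverse strand, is printed because Tmem97 held its call with refeeding in every fit that left out a library.
Tmem97: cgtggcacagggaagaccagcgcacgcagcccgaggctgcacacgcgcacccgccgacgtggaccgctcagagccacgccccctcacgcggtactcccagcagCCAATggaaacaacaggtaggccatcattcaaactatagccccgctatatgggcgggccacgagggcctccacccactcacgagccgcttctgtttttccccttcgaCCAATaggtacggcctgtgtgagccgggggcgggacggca
It held 2 matches to CCAAT. In constitutive controls Tmem97 was at 67.9, 58.4 and 57.5 FPKM fasted and 75.1, 71.9 and 75.3 FPKM refed. In constitutive knockouts it was at 57.0, 65.8 and 55.2 FPKM fasted and 84.1, 73.7 and 67.7 FPKM refed. Refed libraries lay above fasted ones without overlap in both, by 1.21-fold and 1.27-fold in the means, and over the constitutive model Tmem97 rose by 0.30 (SE 0.0698, adjusted p = 0.0169, limma). In acute controls it was at 74.7, 66.6 and 62.3 FPKM fasted against 77.6, 76.8 and 74.5 FPKM refed, and in acute knockouts at 79.3, 70.9 and 79.5 against 72.5, 69.1 and 71.5 FPKM. There the means went in opposite directions, 1.12-fold higher in controls and 0.928 of the fasted mean in knockouts. The averaged change over both models was 0.17 (SE 0.0443, 95% interval 0.08 to 0.26, adjusted p = 0.0073). Under median-of-ratios scaling, the acute minus constitutive difference in the Tmem97 refeeding change was -0.39 and was called, which it was not in the main analysis.

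Stard4, a soluble carrier that moves sterol between membranes, lies on chr18:33201421-33213816. It was at 33.1, 30.3 and 24.2 against 35.8, 29.9 and 35.3 FPKM in acute controls, and at 31.6, 27.8 and 21.9 against 29.9, 38.1 and 42.1 FPKM in acute knockouts. It was at 17.1, 21.4 and 26.1 against 23.2, 18.3 and 18.3 FPKM in constitutive controls, and at 19.96, 21.9 and 20.8 against 19.5, 16.1 and 23.0 FPKM in constitutive knockouts. Fasted and refed libraries overlapped in each pair, and the averaged change of 0.11 was not called (adjusted p = 0.353). Rdh11, a retinal reductase listed among SREBP targets, changed by 0.00 on average (adjusted p = 0.987).

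Markers of other liver cell types moved with refeeding too. In the averaged comparison 5 of 8 stellate, 4 of 8 endothelial and 3 of 8 Kupffer cell markers were called higher, against 19.9% of all genes. Under median-of-ratios scaling, 2128 higher and 1108 lower calls over all genes became 1539 and 1663. The pairs differed in this. The endothelial sum was 40.7 to 83.1 FPKM fasted against 73.9 to 99.3 FPKM refed in acute controls, and 24.1 to 50.1 against 60.0 to 90.6 FPKM in acute knockouts. It was 41.5 to 48.5 against 42.8 to 52.1 FPKM in constitutive controls. In constitutive knockouts, the pair in which Insig2 was called, it was lower after refeeding without overlap, 58.8 to 67.7 against 52.1 to 55.7 FPKM. There 7 of 8 endothelial marker estimates were below 0 and 1 (Fcgr2b) was called lower, against 3.68% of all genes. The Kupffer sum, fasted against refed, was 24.7 to 41.0 against 36.9 to 76.3 FPKM in acute controls and 25.1 to 41.6 against 23.0 to 143 FPKM in acute knockouts. It was 40.4 to 75.3 against 79.2 to 84.3 FPKM in constitutive controls and 72.5 to 99.8 against 79.0 to 99.2 FPKM in constitutive knockouts. The stellate sum was 50.5 to 107 against 97.0 to 111 FPKM in acute controls and 48.2 to 69.7 against 95.5 to 119 FPKM in acute knockouts. It was 68.2 to 74.9 against 84.6 to 114 FPKM in constitutive controls and 79.7 to 109 against 95.5 to 99.2 FPKM in constitutive knockouts. No marker of these 3 lists was at 0 throughout a group. Their part in the refeeding results was not tested.

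Of the promoter table, 23 of the 27 members matched, with 30 windows of 250 bases among 32851 windows of all genes. The letters CCAAT, on either strand, were in 19 of the 30 member windows (63.3%) and in 33.8% of all windows. GGGCGG, the Sp1 letters, were in 21 (70.0%) and in 32.7% of all windows. TCACNCCAC was in 1 (3.33%), before Hmgcs1, and in 1.05% of all windows. GTAAACA was in 0 member windows and in 3.17% of all windows. A match here describes letters in a window, the windows of a gene with several starts can overlap, and nothing follows from a missing match.

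Deletion of FoxO1 was the comparison the mice were made for. In none of the 4 comparisons of knockouts with their controls was a member called by limma. In the acute model 0 of 27 members were called fasted and 0 refed, against 0.297% and 0.105% of all genes, with 0 and 1 members (Srebf2) at an unadjusted p under 0.05. In the constitutive model 0 were called fasted and 0 refed, against 0.0964% and 0.0289% of all genes, with 0 members at an unadjusted p under 0.05 in either. The mean knockout effect over all 4, in which 3.14% of all genes were called, called 0 members, with Rdh11 (0.25, adjusted p = 0.193) and Tm7sf2 (0.11, adjusted p = 0.273) at an unadjusted p under 0.05. Tm7sf2 encodes a sterol C14 reductase.

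The intervals show what size of effect these comparisons could not separate from 0. For Hmgcs1 in fasted acute livers the estimate was 0.82 (SE 0.408, 95% interval -0.07 to 1.72, adjusted p = 0.462), with knockout libraries at 139 FPKM or more and control libraries at 45.5 to 144 FPKM. With only the shallower acute libraries it was 0.43. For Sqle in the same comparison it was 0.59 (95% interval -0.17 to 1.35, adjusted p = 0.527). Insig2 was lower in the knockout means in 3 of the 4 comparisons, with estimates of -0.36 (fasted acute, adjusted p = 0.479), -0.26 (fasted constitutive, 0.94) and -0.24 (refed constitutive, 0.633), and 0.04 in refed acute livers (0.978). Their mean was -0.21 (95% interval -0.42 to 0.01, adjusted p = 0.341, limma). For Scap the 4 estimates lay between -0.12 and -0.02, and for Insig1 between -0.10 and 0.19.

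Srebf2 was the member whose acute libraries separated by genotype in both states. Fasted acute controls had 11.2, 10.5 and 9.99 FPKM and knockouts 12.3, 11.7 and 11.6 FPKM, so every knockout library was above every control (0.16, 95% interval -0.09 to 0.40, adjusted p = 0.619, limma). Refed acute controls had 11.8, 15.6 and 10.8 FPKM and knockouts 9.97, 10.4 and 9.84 FPKM, so every knockout library was below every control (-0.29, 95% interval -0.54 to -0.05, adjusted p = 0.452). Without refed control 2, the library at 15.6 FPKM, the refed estimate for Srebf2 was -0.15 (adjusted p = 0.662). The difference of these effects was -0.45 (SE 0.157, adjusted p = 0.691), not called. In constitutive livers Srebf2 was at 10.8, 8.91 and 9.95 FPKM in fasted controls and 8.60, 9.89 and 9.37 FPKM in fasted knockouts. Refed, it was at 8.61, 8.87 and 7.78 FPKM in controls and 9.65, 7.63 and 8.09 FPKM in knockouts, and these groups overlapped.

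The number of members that separated knockouts from controls without overlap differed by comparison. In fasted acute livers 2 members (Acat2 and Srebf2) lay wholly above the controls and none below, against 9.11% and 9.46% of all genes. Acat2, acetoacetyl-CoA thiolase, overlaps a gene on the opposite strand and has a close copy, so its level is uncertain. In refed acute livers 1 (Mbtps2) lay above and 2 (Srebf2 and Tmem97) below, against 6.18% and 6.48% of all genes. In fasted constitutive livers no member was separated, against 7.63% above and 4.63% below. In refed constitutive livers 5 of the 27 members (Pmvk, Mvd, Fdft1, Tm7sf2 and Rdh11) lay above and 1 (Mbtps1) below, against 6.76% and 8.45% of all genes.

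Signs of the enzyme estimates differed by comparison. In fasted acute livers 7 of 8 mevalonate enzymes and 9 of 10 sterol enzymes had a positive knockout estimate, and in refed constitutive livers 7 of 8 and 10 of 10 did, while only 5 of all 27 members did in fasted constitutive livers. Endothelial markers also moved by comparison, with none called by limma. All 8 estimates were below 0 in fasted acute knockouts (median -0.65, 6 at an unadjusted p under 0.05) and all 8 above 0 in fasted constitutive knockouts (median 0.36, 6 at that p). In refed knockouts 7 of 8 were below 0 in the acute model and 5 of 8 above 0 in the constitutive. The endothelial sum was 40.7 to 83.1 FPKM in fasted acute controls against 24.1 to 50.1 FPKM in knockouts, and 41.5 to 48.5 against 58.8 to 67.7 FPKM in the constitutive model. Their part in the knockout estimates was not tested. In the interaction (refed minus fasted knockout effect), 1 of 10 sterol enzymes was positive in the acute model and 10 of 10 in the constitutive, while 7 of 8 endothelial marker estimates were positive in the acute and 0 of 8 in the constitutive. No member was called in either interaction, nor in the difference of knockout effects between models, fasted or refed. Of all genes, 0.0287% were called in the acute interaction and 0 in the others. Members at an unadjusted p under 0.05 numbered 2 (Tmem97 and Srebf2) in the acute interaction and 0 in the other 3 of these comparisons. For Sqle the acute interaction was -0.79 (95% interval -1.87 to 0.28) and the constitutive 0.50, and the test of their difference gave -1.30 (SE 0.688, adjusted p = 0.675, limma), a comparison added after the data were seen in which 0 genes were called. For Hmgcs1 that difference was -1.33 (95% interval -3.03 to 0.36, adjusted p = 0.724). The fasted and refed knockout effects of a model and its refeeding effects share libraries, and the enzymes shift together by library, so these signs are not separate observations.

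**Figure D4:**
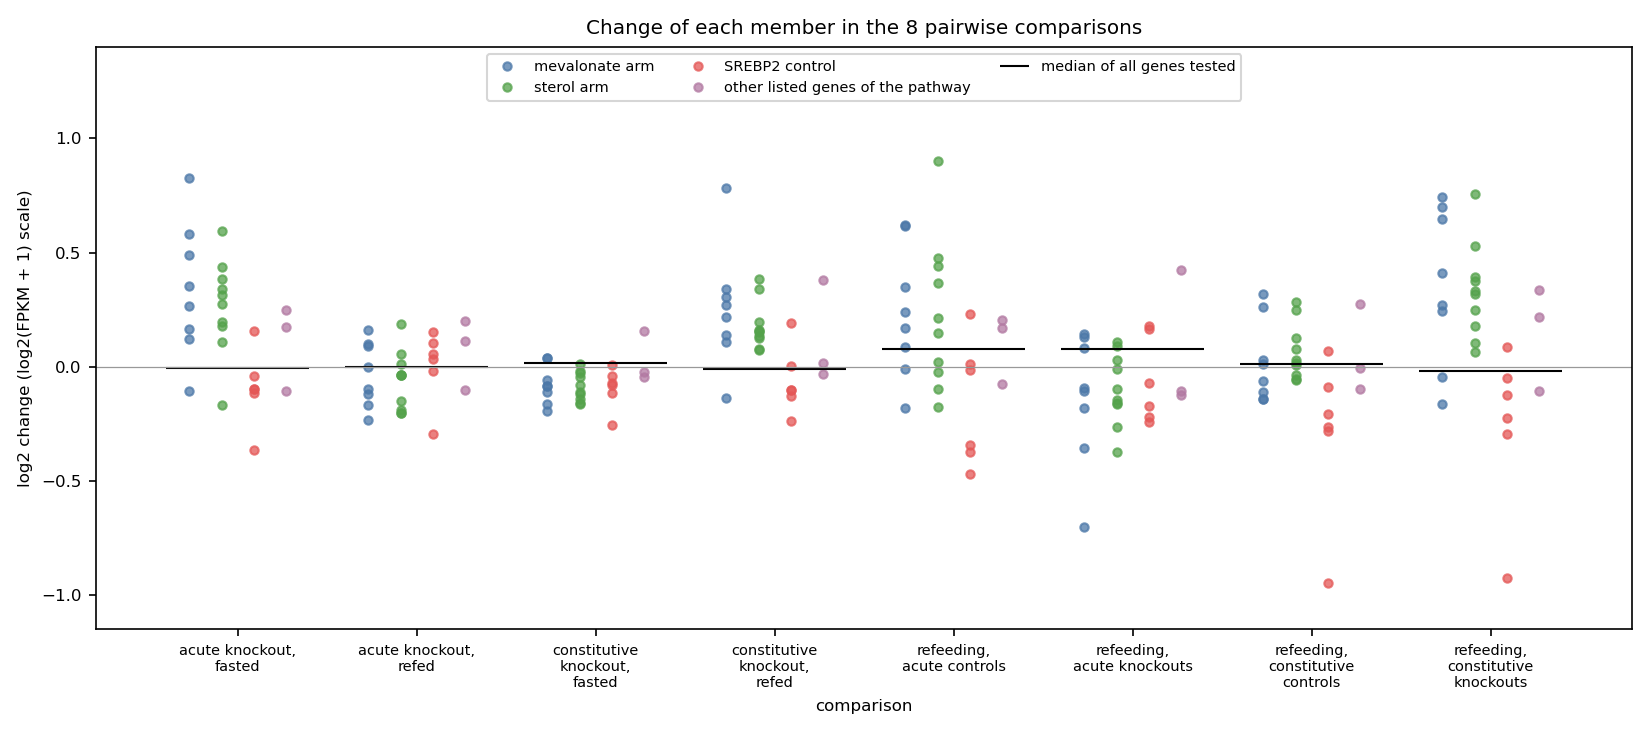
Log2 change of each of the 27 genes (points, coloured by role) in the 4 knockout and 4 refeeding comparisons, with the median of all genes as a line. Enzymes lie mostly above 0 in the fasted acute and refed constitutive knockout comparisons and in the refeeding comparison of constitutive knockouts, and the lowest point of both constitutive refeeding comparisons is Insig2.

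Between the controls of the 2 models, 3 members were called. Averaged over fasted and refed livers, acute controls exceeded constitutive controls for 24 of 27 members, with a median of 0.35 on the log2 scale, while 64.6% of all genes were positive with a median of 0.05. By limma the 3 called members were all higher, 11.1% of 27 against 2.29% of all genes (1.73% higher). Stard4 was higher by 0.58 (SE 0.119, 95% interval 0.33 to 0.83, adjusted p = 0.0192), Insig1 by 0.58 (SE 0.131, 95% interval 0.31 to 0.85, adjusted p = 0.0286) and Srebf2 by 0.31 (SE 0.0743, 95% interval 0.15 to 0.46, adjusted p = 0.0383). Members at an unadjusted p under 0.05 numbered 13. Because the enzymes varied together from library to library, the members in these counts are not separate observations.

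Insig1 stood at 157, 119 and 91.9 FPKM in fasted acute controls and at 90.4, 78.5 and 64.8 FPKM in fasted constitutive controls, with no overlap. After refeeding it stood at 78.6, 111 and 90.0 FPKM against 61.1, 61.1 and 68.2 FPKM, again with no overlap. The acute mean was 1.57-fold higher fasted and 1.47-fold higher refed. For Stard4 the acute mean was 1.36-fold higher fasted, with overlapping libraries, and 1.69-fold higher refed, where the lowest acute library (29.9 FPKM) was above the highest constitutive one (23.2 FPKM). Srebf2 was 1.51-fold higher in refed acute controls. Hmgcs1 was 1.66-fold and Sqle 1.46-fold higher fasted, and 2.20-fold and 2.32-fold higher refed, but neither was called (Hmgcs1 0.86, SE 0.287, adjusted p = 0.102, and Sqle 0.80, adjusted p = 0.0802, limma). The same comparison gave 0.78 for Idi1 (adjusted p = 0.0738) and 0.75 for Mvd (adjusted p = 0.122). Insig2 (-0.10) and Scap (-0.05) were not called.

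In refed livers 16 of 27 members lay above without overlap in refed acute controls, against 16.9% of all genes, and 1 (Ebp) lay below, against 4.04%. The enzymes among the 16 shift together by library and are not separate observations. In fasted livers 1 member, Insig1, lay above and none below, against 8.35% and 6.75% of all genes. These calls depended on single libraries and on the fit. Without the filter on low values only Stard4 of the 3 was called. The fit with the replicate number as a block cannot test this comparison. Its blocks lie within each model, so their effects do not cancel between models. Without fasted acute control 3, 11 members were called, and without fasted acute control 1, refed constitutive control 2 or refed constitutive control 3, none was. Without fasted constitutive control 1 or 3, 1 was called. With only the shallower acute libraries, 10 were called, all higher, among them Idi1 (1.13), Hmgcs1 (1.24) and Sqle (1.17). The call of Srebf2 was lost under median-of-ratios scaling (adjusted p = 0.0681), which turned 185 higher and 60 lower calls over all genes into 92 and 140.

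The acute controls carried a virus, were a separate set of mice and included the shallower libraries, and these differences cannot be told apart. Endothelial markers moved in the same comparison, with 5 of 8 called higher (Oit3, Kdr, Fcgr2b, Clec4g and Pecam1), against 1.73% of all genes. The hepatocyte marker Apoa1 was called lower (-0.36), as were 60 of all 10682 genes. No Kupffer cell or stellate marker was called, and all 8 Kupffer estimates were below 0 (median -0.44). The endothelial sum was 40.7 to 83.1 FPKM fasted and 73.9 to 99.3 FPKM refed in acute controls, against 41.5 to 48.5 and 42.8 to 52.1 FPKM in constitutive controls. No endothelial marker was at 0 throughout a group, and the part of these cells in the difference between controls was not tested.

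**Figure D5:**
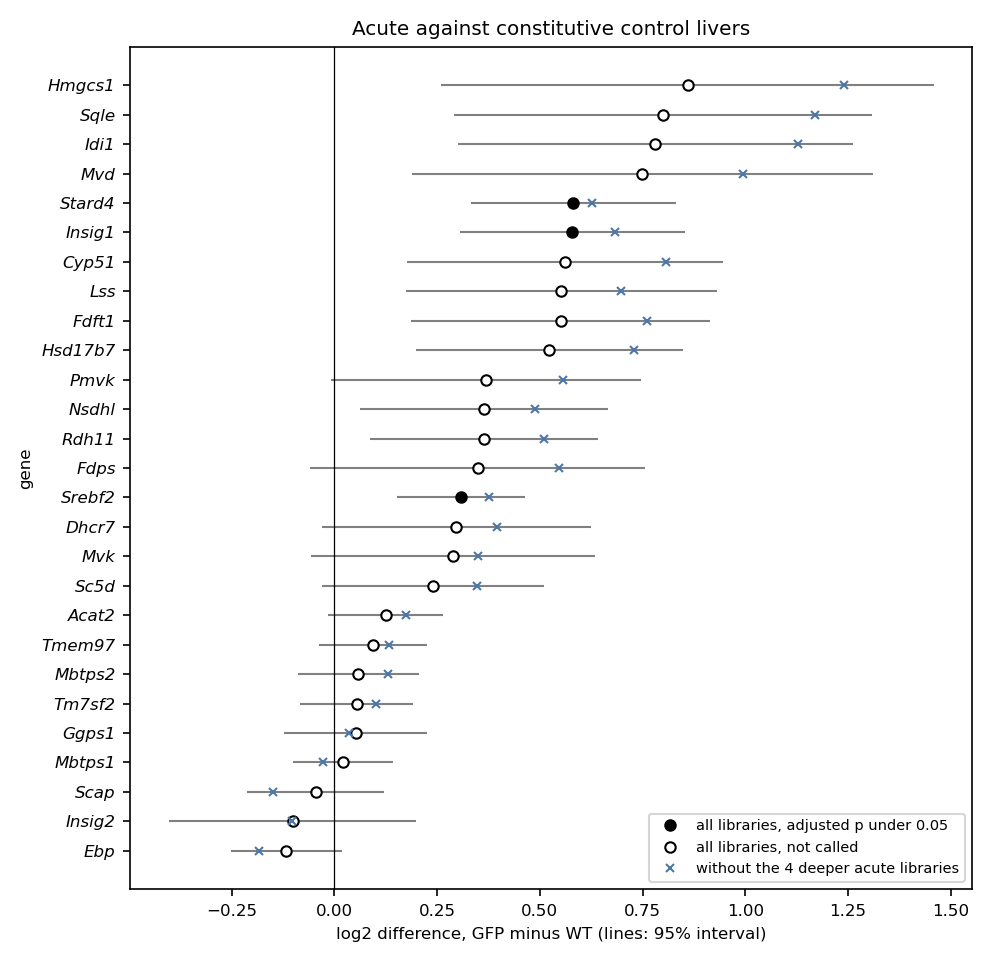
Acute minus constitutive controls for each of the 27 genes on the log2(FPKM + 1) scale, averaged over fasted and refed livers, with 95% intervals (points and lines), and the same without the 4 deeper acute libraries (×). Nearly all points lie above 0, Hmgcs1, Sqle, Idi1 and Mvd with the largest values and wide intervals, and Insig2, Scap and Ebp lie below it.

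Genes around the pathway were followed in 3 lists. Their counts in the averaged refeeding comparison stand against 19.9% of all genes called higher and 10.4% lower. Of 12 other sterol and isoprenoid enzymes, 4 rose in it: Aacs (0.86), which activates acetoacetate for lipid synthesis in the cytosol, Nus1 (0.24), a subunit of the dolichol-making prenyltransferase, Lbr (0.19), a lamin receptor with sterol reductase activity, and Pdss1 (0.18), of ubiquinone side chain synthesis. Aacs also passed the test in acute controls, from 16.9 to 25.8 FPKM fasted to 57.7 to 66.8 FPKM refed (1.52, adjusted p = 0.00125, limma, where 6.56% of all genes were called). In acute knockouts it went from 31.3 to 35.3 FPKM to 48.2 to 74.7 FPKM (0.87, adjusted p = 0.0202, where 5.44% were called). Neither Aacs nor any other of the 12 was called in constitutive controls or constitutive knockouts, where 0.318% and 5.68% of all genes were called. The largest estimates among the 12 there were 0.395 and 0.659.

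Of 13 genes of SREBP and INSIG turnover and sterol sensing, 4 rose in the average: Syvn1 (0.44), an ubiquitin ligase of the endoplasmic reticulum, Srebf1 (0.39), the gene of SREBP1, Rnf145 (0.34), a sterol-responsive ubiquitin ligase, and Nr1h3 (0.17), the oxysterol receptor LXR alpha. Of the 11 measured genes of sterol storage and intracellular transport, 5 fell and none rose: Npc1 (-0.45), which moves cholesterol out of lysosomes, Abcg8 (-0.38) and Abcg5 (-0.32), which export sterols into bile, Soat2 (-0.33), which esterifies cholesterol, and Lipa (-0.19), the lysosomal acid lipase. Under median-of-ratios scaling the genes called lower over all genes went from 1108 to 1663. Npc1 went from 31.0 to 37.2 FPKM fasted to 19.1 to 24.9 FPKM refed in acute controls (-0.55) and from 25.4 to 28.9 FPKM to 15.8 to 19.3 FPKM in constitutive knockouts (-0.56, adjusted p = 0.0186, limma).

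In the mean knockout effect 3 of the 11 storage and transport genes were called, all lower, against 3.14% of all genes (1.98% lower): Npc1 (-0.35, adjusted p = 0.00138), Stard5 (-0.24, adjusted p = 0.000783), a cytosolic sterol carrier, and Osbpl1a (-0.15, adjusted p = 0.0298), an oxysterol-binding protein. No gene of the other 2 lists was called in it, as for the 27 members. Fasted acute knockouts had Npc1 at 23.2 to 25.1 FPKM, below every fasted acute control, and refed ones at 15.1 to 19.1 FPKM, which touched the lowest refed control (19.1 FPKM). No gene of the 3 lists was called in a single comparison of knockouts with their controls, nor between the controls of the 2 models.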

How the data were processed

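RNA of snap-frozen livers was made into libraries with the TruSeq Stranded mRNA kit, per the labels' protocols. The authors deposited 1 table of FPKM per library, with 23746 loci. HISAT2, Cufflinks, Cuffdiff and build mm10 are named in the submitters' processing notes, with no version, and the strand setting of the counting was not given in the sources used here. Cuffdiff can list a failed estimate at 0: of 2435 loci with a median of 20 FPKM or more, 20 were at 0 in some library, and 14 loci marked as failed were left out. FPKM tables hold no total count, so depth is known only in relative terms, from the steps of low values.

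Each locus was tested as its own gene, and each member had 1 locus. limma 3.58.1 in R 4.3.3 was fitted to log2(FPKM + 1), a pseudocount of 1, with a trend in the prior variance and two-sided tests, on genes with at least 1 FPKM in 3 or more libraries. The acute fit (10452 genes) gave the acute comparisons, the constitutive fit (10375) the constitutive ones, and the joint fit of 24 libraries (10682) those across models. Fold changes on this scale understate those of low genes. The 4 groups of a model shared one estimate of the spread, and comparisons within a model share libraries. The fits were tested on simulated data with noise drawn for each gene on its own. Planted 3/2-fold changes, in genes drawn at random above a low level, were found in 62.7% to 77.6% of cases in the 8 pairwise comparisons. In the acute and constitutive interactions these shares were 23.9% and 34.3%. They do not describe the enzymes, whose pooled SD within groups was 0.318, against 0.145 over all genes kept. A larger spread makes a change harder to find, and the share for the enzymes alone was not computed. The simulation does not cover genes that shift together by library, as the enzymes did.

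The 27 genes and the lists of other genes and markers were chosen with earlier results of these data known. Every member is accounted for. Members that were called, the regulators Srebf2, Scap, Insig1 and Insig2, and Hmgcs1 and Sqle were given in full. Called genes of the 3 lists around the pathway were named for the averaged refeeding effect and the mean knockout effect. In single refeeding pairs and in refeeding of a model over both genotypes, not every called gene of these lists was named. Alternatives were fits without the filter, with 0.1 as pseudocount, with the replicate number as a block, after scaling libraries by the median of their ratios, on the compared groups alone, without the deeper acute libraries, and without each library in turn. Promoter windows were read from the RefSeq table of GRCm38.p6.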

Additional observations from a re-analysis of the deposited data

Results flagged for a closer look

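The knockout estimates for Srebf2, the gene of SREBP2, had opposite signs in the 2 feeding states of the acute model, and neither was called. In fasted livers each of the 3 knockout libraries was above each control (0.16 on the log2 scale, SE 0.111), and in refed livers each was below (-0.29, SE 0.111). Of all genes, 9.11% lay wholly above in the fasted comparison and 6.48% wholly below in the refed one. The refed value was -0.15 without refed acute control 2, whose level of 15.6 FPKM stood above the 11.8 and 10.8 FPKM of its group. The test of the difference itself gave -0.45 (SE 0.157, adjusted p = 0.691, limma's test with adjustment over all genes), so it did not pass the threshold. In the constitutive model the same difference was 0.08, and acute minus constitutive it was -0.53 (SE 0.21, adjusted p = 0.592).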

How the results depend on the processing

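The number of members called moved under these settings. Without the filter on low values it was 0 in the refeeding of constitutive knockouts (1 in the main analysis), 3 in the averaged refeeding effect (5) and 1 between controls (3). Under median-of-ratios scaling it was 1 in constitutive controls refed (0), 3 in constitutive knockouts refed (1), 1 in the refeeding of the acute model over both genotypes (0) and 1 in the difference of refeeding between models (0). With the replicate block, which cannot test the comparison between controls, it was 1 in constitutive controls refed and 2 in constitutive knockouts refed. With the shallower acute libraries only it was 1 in acute controls refed (Sqle, adjusted p = 0.0447), 1 in the acute model over both genotypes and 10 between controls. Leaving out single libraries gave 0 to 1 in constitutive controls refed, 0 to 2 in constitutive knockouts refed, 3 to 7 in the averaged refeeding effect and 3 to 7 in the constitutive model over both genotypes. It gave 0 to 11 between controls, 0 to 1 in the acute model over both genotypes and 0 to 1 in the difference of refeeding between models. The cause of these moves was not tested. In the averaged refeeding effect 3 members were called without acute knockout refed 2, constitutive control fasted 2 or refed 2, or constitutive knockout fasted 1 or 3, and 7 without acute control fasted 1. In the constitutive model over both genotypes 6 were called without control fasted 1 and 7 without knockout fasted 2.

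Estimates near 0 changed sign. Under scaling these were Sqle in acute knockouts refed (-0.0032), Scap in the constitutive interaction (0.011) and Scap in the fasted difference of knockout effects between models (0.0043), and with the shallower libraries Scap in the refed acute knockout effect (0.15). Leaving out single libraries, the acute knockout effect ranged from -0.28 to 0.098 for Insig1 fasted, and refed from -0.13 to 0.10 for Scap, -0.011 to 0.23 for Insig1, -0.075 to 0.13 for Insig2, -0.40 to 0.23 for Hmgcs1 and -0.51 to 0.020 for Sqle. The constitutive one ranged fasted from -0.19 to 0.074 for Insig1, -0.44 to 0.22 for Hmgcs1 and -0.44 to 0.12 for Sqle, and refed from -0.087 to 0.064 for Srebf2. Refeeding ranged from -0.24 to 0.58 for Hmgcs1 in acute controls, from -0.21 to 0.044 for Insig2 and -0.027 to 0.24 for Sqle in acute knockouts, from -0.50 to 0.17 for Hmgcs1 and -0.049 to 0.47 for Sqle in constitutive controls, and from -0.19 to 0.10 for Insig1 in constitutive knockouts. Interactions ranged from -0.012 to 0.22 for Scap (acute), and from -0.0056 to 0.15 for Srebf2, -0.074 to 0.046 for Scap and -0.19 to 0.22 for Insig2 (constitutive). Differences of knockout effects between models ranged fasted from -0.14 to 0.043 for Scap, -0.25 to 0.14 for Insig1 and -0.31 to 0.083 for Insig2, and refed from -0.028 to 0.20 for Scap and -0.24 to 0.055 for Insig1. The mean knockout effect of Insig1 ranged from -0.0072 to 0.089, and the difference of controls from -0.11 to 0.0095 for Scap and -0.20 to 0.0011 for Insig2.

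Sqle lost its call in the averaged refeeding effect in 10 of 24 such fits and Fdps in 13. Between controls Stard4 and Insig1 stayed called in 20 of 24 fits and Srebf2 in 16. Numbers were not taken to pair libraries, since not every same-numbered pair correlated over 0.1. That rule is strict, so it does not settle whether libraries of the constitutive model were paired. The deviations of same-numbered libraries correlated between -0.349 and 0.378 in the acute model (median -0.018, 5 of 18 pairs over 0.1) and between -0.156 and 0.281 in the constitutive (median 0.086, 8 of 18). For different numbers the medians were -0.015 (14 of 36 over 0.1) and -0.042 (6 of 36). The best match had the same number for 2 of 12 acute and 7 of 12 constitutive libraries, a hint from the data, not the design. With the replicate block the adjusted p was 0.0246 for Insig2 in constitutive controls refed. It was 0.0076 for Insig2 and 0.0397 for Scap in constitutive knockouts refed. Scaling moved the split of all calls, higher against lower, from 503 and 183 to 239 and 304 in acute controls refed, from 449 and 120 to 164 and 203 in acute knockouts refed, from 207 and 382 to 424 and 402 in constitutive knockouts refed, from 130 and 23 to 39 and 116 in the difference of refeeding between models, and from 1630 and 429 to 701 and 857 in the acute model over both genotypes.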
